A study of Mus musculus with 6 samples.

Results

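The genes described here are 10 genes of the stroma of fat, the connective tissue in which fibroblasts and the progenitors of fat cells lie: Pdgfra, Fbln1, Pi16, Dpp4, Cd55, Cd34, Gsn, Mgp, Aebp1 and Ly6a. They were taken by symbol, and all 10 were found among the 55011 gene symbols counted and passed the filter on low counts that left 13859 genes for testing. RNA came from whole visceral adipose tissue, the fat around the abdominal organs, of male mice, in 3 libraries labelled Bmal1WT and 3 labelled Bmal1KO. Every mouse was 30 weeks old, on a C57BL/6 background with the Foxp3.Cre-YFP allele, had first eaten a low-fat diet (14 weeks) and then a high-fat diet (16 weeks), and was sampled at zeitgeber time 0 h, when the lights come on. The groups differ in bmal1, whose product BMAL1 is a core transcription factor of the circadian clock. The Cre allele that both groups carry is named for Foxp3, a gene of regulatory T cells, whereas the genes described here are known mainly from other cells of the tissue. The labels do not say how the bmal1KO allele was made, in which cells bmal1 was deleted or whether each library came from 1 mouse, so the p-values below measure the spread between these libraries, which may in part be technical.

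Adipose progenitors lie around vessels and in the connective tissue between lobules, and are recognised by the receptor PDGFRA and by surface proteins such as CD34 and LY6A (SCA-1). Cells that carry DPP4, PI16 and CD55 lie in the outer connective tissue and give rise to more committed preadipocytes, which in turn become fat cells. The same stromal cells secrete much of the matrix of fat, and in obesity part of them take on a fibrogenic state. Several of the 10 genes are not confined to these cells: Cd34 and Ly6a are also expressed by endothelium, Mgp by vessel walls, Dpp4 by T cells, and Gsn by fat cells and mesothelium.

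Libraries held 6514620 to 9529198 counts, and Bmal1KO replicate 1, the smallest, had counts on the most genes (30019, against 19009 to 20145 in the other 5). Levels are given in CPM, the count scaled to a common library size after TMM normalisation, as mean ± SD over 3 libraries unless said otherwise. The targeted gene, listed as Arntl, had means of 33.2 ± 6.16 CPM for Bmal1WT and 40.1 ± 8.06 CPM for Bmal1KO (SD, n = 3) in whole fat, where Foxp3 itself had 0 to 3 counts per library. The fat cell hormone gene Adipoq was at 1953 to 5498 CPM in the 6 libraries. Bmal1WT replicate 1 carried 446 CPM summed over 19 genes of epididymis and testis, against 0.453 to 5.11 CPM in the other libraries.

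In Bmal1KO fat, 3 genes of secreted stromal proteins had higher levels than in Bmal1WT fat, Mgp by 2.03-fold, Fbln1 by 2.06-fold and Aebp1 by 1.55-fold, each with all 3 Bmal1KO libraries above all 3 Bmal1WT libraries. Gsn was lower in Bmal1KO replicates 2 and 3 but not in replicate 1, and the surface proteins that define progenitors (Pdgfra, Cd34, Ly6a, Dpp4 and Cd55) overlapped between groups. By edgeR's quasi-likelihood test, after Benjamini-Hochberg adjustment across the 13859 genes, 0 of 10 members were called (Mgp came nearest, at an adjusted p = 0.318), and no other gene was called either (0%, lowest adjusted p = 0.265). Where the unadjusted p of the same test was under 0.05, 3 of 10 members were higher, the same 3, where 700 of all genes tested (5.05%) were higher and 590 were lower. Scaled by total counts instead, those numbers over all genes were 1070 and 311, so that scaling shifts genes toward Bmal1KO. Groups did not overlap, with Bmal1KO higher, for 3 of 10 members against 7.83% of all genes, and with Bmal1KO lower for 0 of 10 members against 7.85% of all genes. In all, 8 of 10 members had a positive and 2 a negative log2 fold change, where 51.96% of all genes tested were positive. The members' median was 0.37, against a median of 0.02 over all genes tested. Because the members were chosen with earlier results of these data known, this contrast is a description without a test.

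Other tools differed in what they called. DESeq2, with its own filter, called 60 genes (0.417% of 14379), 36 higher and 24 lower, and 3 of these were members, all higher: Mgp (adjusted p = 0.000402), Fbln1 (adjusted p = 0.0385) and Aebp1 (adjusted p = 0.0485). By contrast, limma voom with quality weights called 0 genes, with 1683 at an unadjusted p under 0.05, against 1290 for edgeR. Without Bmal1KO replicate 1, edgeR's quasi-likelihood test called 156 of 14247 genes tested, 46 higher and 110 lower. Among them were Mgp, higher (edgeR adjusted p = 0.0322), and Gsn, lower (edgeR adjusted p = 0.0472). With 3 libraries against 3, the smallest 2-sided p that an exact permutation test allows is 0.1.

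**Figure D1:**
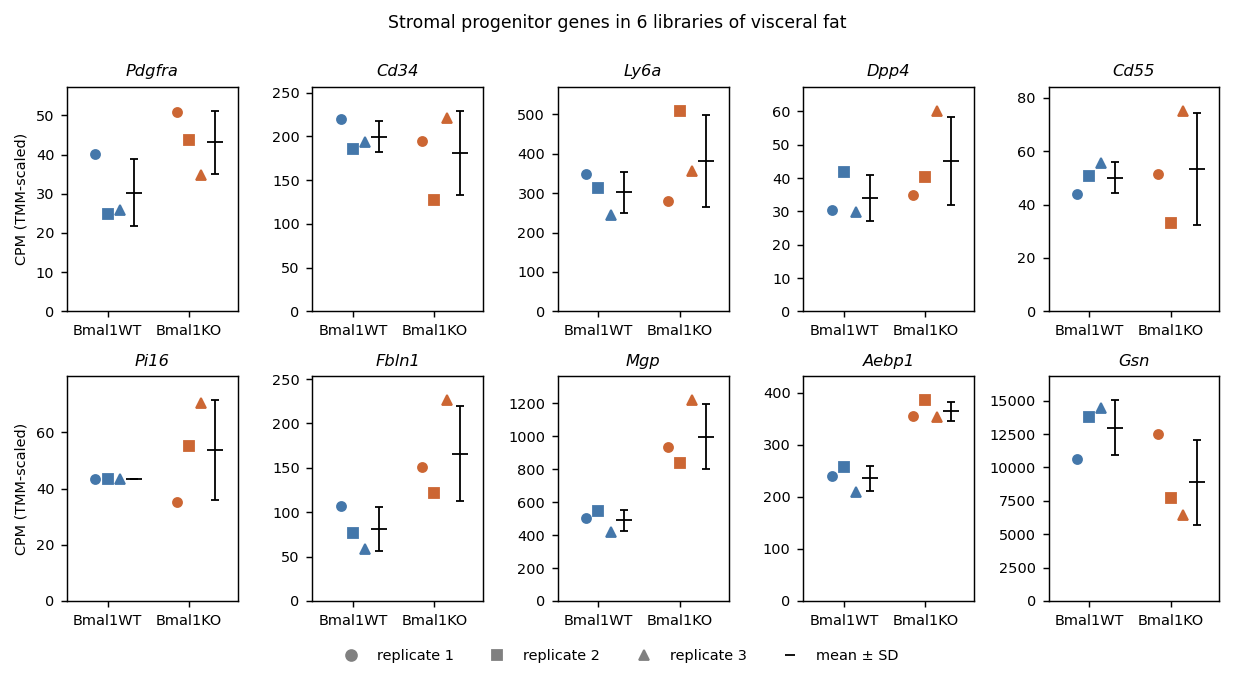
Levels of the 10 genes in CPM after TMM scaling (vertical axes, each from 0) in the 3 Bmal1WT libraries (blue) and the 3 Bmal1KO libraries (orange), with a marker shape for each replicate number and the mean ± SD in black. For Fbln1, Mgp and Aebp1 all Bmal1KO points lie above all Bmal1WT points, and for the other 7 genes the groups overlap.

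Of the secreted and matrix proteins, Mgp had the smallest p of any member. Its product, matrix Gla protein, is a small vitamin K-dependent protein that inhibits the calcification of soft tissue and binds bone morphogenetic proteins. Mgp (mm10 chromosome 6, 136872435 to 136875823) measured 507, 546 and 419 CPM in Bmal1WT replicates 1, 2 and 3, the order used throughout, and 935, 839 and 1218 CPM in the 3 Bmal1KO libraries. Every Bmal1KO library thus lay well above the highest Bmal1WT library, and the 3894 to 9816 counts left a counting error of at most 1.6% in a library. The means were 490.5 ± 64.9 and 997 ± 197 CPM (SD, n = 3), a log2 fold change of 1.02 with SE 0.20 (edgeR adjusted p = 0.318). With 1 library left out, its log2 fold change stayed between 0.85 and 1.13.

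Fbln1 encodes fibulin 1, a calcium-binding glycoprotein of the matrix and of basement membranes that binds fibronectin. Fbln1 (mm10 chromosome 15, 85205949 to 85286535) was at 107, 76.5 and 58.2 CPM in Bmal1WT, against 151, 121 and 226 CPM in Bmal1KO. Both groups were spread widely: the nearest libraries of the 2 groups differed by less than the Bmal1WT libraries did among themselves, and Bmal1KO replicate 3 was the highest. Its log2 fold change was 1.04 with SE 0.27 (edgeR adjusted p = 0.414), and ran from 0.75 without Bmal1KO replicate 3 to 1.31 without Bmal1WT replicate 1.

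Aebp1 encodes a secreted, collagen-binding protein with a carboxypeptidase-like domain, also called ACLP, that is known from fibroblasts and preadipocytes. Aebp1 (mm10 chromosome 11, 5861947 to 5872088) was at 240.2, 257 and 209 CPM in Bmal1WT, against 355, 386 and 353 CPM in Bmal1KO. It was the most even of the 3: the SD was 10.4% of the mean in Bmal1WT and 5.02% in Bmal1KO. The log2 fold change was 0.63 with SE 0.15 (edgeR adjusted p = 0.398), and lay between 0.56 and 0.70 with 1 library left out.

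Of the 3 members whose groups did not overlap, Fbln1 and Aebp1 have a promoter in the table used, and both are shown because the labelled deletion is of a factor that binds a known motif. RefSeq promoters (build GRCm38.p6, the assembly of mm10; 250 bases before to 50 after the start) matched 8 of the 10 members, in 11 windows, all but Mgp and Ly6a. They were searched on both strands for CACGTG, the E-box that CLOCK and BMAL1 bind, for the GC box GGGCGG and for TATAAA. Within the member windows no match of one motif overlapped a match of another. Capitals mark matches on either strand. The Fbln1 window is chr15:85205699-85205998 and the Aebp1 window is chr11:5861616-5861915, both on the plus strand.
Fbln1: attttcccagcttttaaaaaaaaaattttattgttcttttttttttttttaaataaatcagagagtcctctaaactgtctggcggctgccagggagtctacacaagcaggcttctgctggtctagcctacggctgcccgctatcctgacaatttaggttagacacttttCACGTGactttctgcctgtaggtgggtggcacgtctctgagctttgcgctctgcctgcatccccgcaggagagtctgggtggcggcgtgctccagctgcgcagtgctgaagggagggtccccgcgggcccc
Aebp1: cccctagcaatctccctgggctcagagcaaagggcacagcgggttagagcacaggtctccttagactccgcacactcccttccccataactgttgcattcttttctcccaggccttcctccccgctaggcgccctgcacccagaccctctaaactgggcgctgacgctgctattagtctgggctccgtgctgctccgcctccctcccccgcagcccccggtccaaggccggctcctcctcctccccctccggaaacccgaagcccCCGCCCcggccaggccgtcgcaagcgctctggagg
The E-box was found at 1 place among the member windows, 81 bases before the start of Fbln1 shown here, which a window for another Fbln1 start also holds. Of all 32817 RefSeq windows of this length, 7.15% hold it. GC boxes were found in 6 of the 11 windows (of Cd55, Gsn, Aebp1 and Fbln1), against 35.6% of all windows, and TATAAA in 1, that of Dpp4, 227 bases before the start, against 13.6% of all. These matches describe letters only, and BMAL1 binding was not measured.

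Gsn and Pi16 complete the secreted group. Gsn encodes gelsolin, which severs and caps actin filaments and has a secreted plasma form, and it was by far the most abundant member. Gsn (mm10 chromosome 2, 35256380 to 35307892) was at 10636, 13813 and 14470 CPM in Bmal1WT, against 12504, 7695 and 6451 CPM in Bmal1KO. Thus Bmal1KO replicate 1 lay inside the Bmal1WT range and replicates 2 and 3 below it. The log2 fold change was -0.55 with SE 0.27 (edgeR adjusted p = 0.561) and became -0.88 without Bmal1KO replicate 1. Gsn alone took 1.01 to 1.41% of all counts in Bmal1WT and 0.672 to 1.28% in Bmal1KO. All members together took 1.16 to 1.54% in Bmal1WT and 0.945 to 1.49% in Bmal1KO, with overlap. Without Gsn, the other 9 took 0.125 to 0.150% in Bmal1WT and 0.213 to 0.272% in Bmal1KO, with no overlap. Mgp is the largest part of that smaller sum. These are shares of total counts, a scaling that shifts genes toward Bmal1KO, and no background for such a sum was computed.

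Pi16, a secreted or membrane-anchored peptidase inhibitor that marks the interstitial progenitors, overlapped between groups. Pi16 (mm10 chromosome 17, 29317680 to 29330593) was at 43.3, 43.4 and 43.3 CPM in Bmal1WT, against 35.2, 55.3 and 70.5 CPM in Bmal1KO. The Bmal1WT values lay closer together (SD 0.128% of the mean) than the counting error of 4.99 to 5.2% in each of these libraries, so this SD understates the error of Pi16 there. Bmal1KO replicate 1 lay below and replicates 2 and 3 above the Bmal1WT values, giving a log2 fold change of 0.31 with SE 0.24 (edgeR adjusted p = 0.699).

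**Figure D2:**
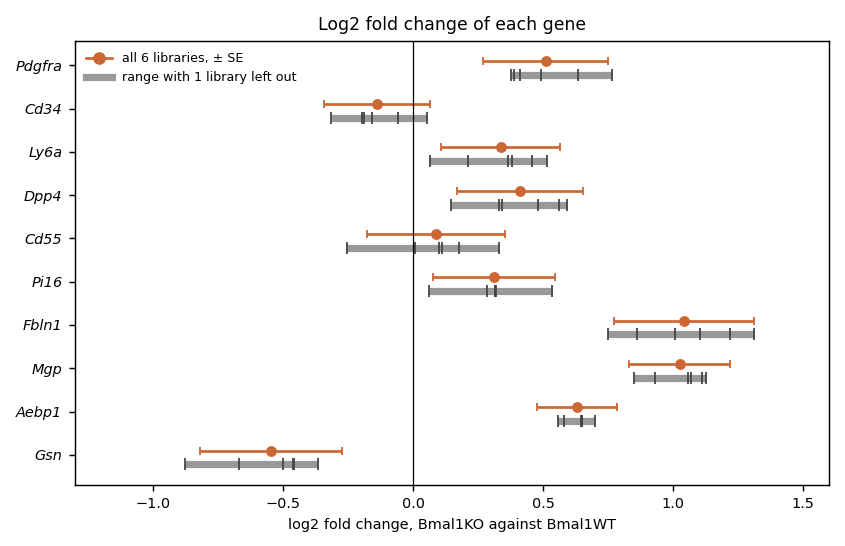
Log2 fold change of each gene, Bmal1KO against Bmal1WT (horizontal axis), from edgeR with all 6 libraries (orange, bars are ± SE) and the range over the 6 fits with 1 library left out (grey, ticks are the single fits). Fbln1, Mgp and Aebp1 stay above 0.5, Gsn stays below 0, and the ranges of Cd34 and Cd55 include 0.

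Among the surface proteins, Pdgfra, the receptor for platelet-derived growth factors that marks fibroblasts and adipose progenitors as a whole, came nearest to a separation of the groups. Pdgfra (mm10 chromosome 5, 75152292 to 75198215) was at 40.04, 24.96 and 25.9 CPM in Bmal1WT, against 50.8, 43.8 and 34.9 CPM in Bmal1KO. Bmal1WT replicate 1, the library with epididymal genes, overlapped the Bmal1KO range; the other 2 Bmal1WT libraries lay below it. The log2 fold change was 0.51 with SE 0.24 (edgeR adjusted p = 0.544), and 0.76 without Bmal1WT replicate 1, where the groups did not overlap, as for 12.6% of all genes in the same direction, and edgeR's adjusted p was 0.695.

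Cd34 and Ly6a, surface proteins that progenitors share with endothelium, overlapped between groups. Cd34, a sialomucin (mm10 chromosome 1, 194938819 to 194961279), was at 219.8, 186 and 193 CPM in Bmal1WT, against 194, 128 and 221 CPM in Bmal1KO, so the Bmal1KO values enclosed the Bmal1WT values on both sides. Ly6a, a GPI-anchored protein (mm10 chromosome 15, 74994877 to 74998031), was at 348, 314 and 244 CPM in Bmal1WT, against 279.7, 509 and 355 CPM in Bmal1KO, where replicate 2 was the high library and replicate 1 lay inside the Bmal1WT range. Their log2 fold changes were -0.14 with SE 0.20 for Cd34 (edgeR adjusted p = 0.852) and 0.34 with SE 0.23 for Ly6a (edgeR adjusted p = 0.662).

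Dpp4 and Cd55 mark the interstitial progenitors together with Pi16. Dpp4, a serine protease that cleaves incretins and chemokines (mm10 chromosome 2, 62330073 to 62412231), was at 30.3, 41.9 and 29.8 CPM in Bmal1WT, against 35.04, 40.4 and 60.2 CPM in Bmal1KO. Only replicate 3 of Bmal1KO lay outside the Bmal1WT range, and the log2 fold change was 0.41 with SE 0.24 (edgeR adjusted p = 0.618). Cd55, which protects cells by breaking up complement convertases (mm10 chromosome 1, 130439027 to 130462744), was at 44.03, 50.7 and 55.7 CPM in Bmal1WT, against 51.4, 33.3 and 75.2 CPM in Bmal1KO. Its Bmal1KO libraries lay inside, below and above the Bmal1WT range, and the log2 fold change of 0.09 with SE 0.26 (edgeR adjusted p = 0.939) changed sign without Bmal1KO replicate 3 (-0.25). Its close relative Cd55b had 1 count in all, so reads split between the pair were hardly counted there.

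Across the group, SD as a share of the mean ran from 0.128 to 30.8% in Bmal1WT and from 5.02 to 39.4% in Bmal1KO. Counting error in a single library was at most 6.85% for any member, reached for Pdgfra. The exons of Pdgfra, Pi16, Dpp4, Cd55 and Cd34 overlap annotated genes on the opposite strand. Each such gene covers 1.66 to 4.55% of the member's exon length, and Pdgfra has both Gm42802 (4.55%) and Gm42803 (1.66%). Reads there cannot be told apart in libraries that do not mark strand.

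Levels of different genes were compared per kilobase of exon (CPM divided by the length of all annotated exons of the gene). On this scale the order in Bmal1WT was Gsn, Mgp, Ly6a, Aebp1, Cd34, Fbln1, Cd55, Pi16, Dpp4 and Pdgfra, and no neighbours in that order overlapped over the 3 libraries. The levels ran from 4109 ± 649 CPM per kb for Gsn over 413 ± 54.7 for Mgp and 250.8 ± 43.9 for Ly6a down to 5.39 ± 1.09 for Dpp4 and 3.02 ± 0.842 for Pdgfra (SD, n = 3). Pdgfra, the receptor that defines the cells, thus had the lowest level of the 10 genes per kb. In Bmal1KO the order was the same but for Fbln1, which at 38.0 ± 12.3 CPM per kb stood above Cd34 at 24.9 ± 6.6, while their ranges overlapped. The ranges of Cd55 and Pi16, and of Pi16 and Dpp4, overlapped there too. The top of the order in Bmal1KO was Gsn at 2814 ± 1013 and Mgp at 840.3 ± 166 CPM per kb.

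The members did not follow 1 profile over the libraries. Likeness was measured as the root mean square distance between log2 CPM profiles over the 6 libraries, each centred on its own mean. Pi16 and Dpp4 were the closest pair (0.215), followed by Cd55 and Cd34 (0.225) and by Fbln1 and Mgp (0.226), and Fbln1 and Gsn were the most distant (1.01). Aebp1 lay nearest to the mean profile of the members (0.199) and Gsn farthest from it (0.608). That mean profile, as the difference from the Bmal1WT mean, was 0.07, 0.04 and -0.12 log2 units in the Bmal1WT libraries and 0.29, 0.21 and 0.52 in the Bmal1KO libraries. Among 8659 genes outside the lists used here with a mean of at least 10 CPM, the nearest to it were 4833420G17Rik (0.0510), Itsn2 (0.0532), Fibp (0.0536), Tnpo1 (0.0581) and Slc25a37 (0.0582). All of these lay nearer to it than Aebp1, the nearest member, so the mean profile stands for no single member closely. Whether these genes are regulated together with the members was not tested.

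Median log2 fold changes of 8 lists of other genes of the same cells and pathways ran from -0.23 to 0.15, against 0.37 for the members and 0.02 for all genes tested. None of the genes in these lists passed edgeR's quasi-likelihood test over all genes (0 in either direction). General fibroblast genes, among them the main collagens and small proteoglycans, had a median log2 fold change of 0.02 over 19 tested genes, with 10 positive and 9 negative. The proteoglycan Dcn averaged 2379.5 ± 503 CPM for Bmal1WT and 2933 ± 106 CPM for Bmal1KO (0.30 on the log2 scale, SE 0.20), and Col3a1, a fibrillar collagen, averaged 1619 ± 632 and 1431 ± 689 CPM (-0.18); both were named after their values were seen. The genes of smallest p on this list were Col6a1 and Col6a2, chains of the microfibril collagen VI, with log2 fold changes of -0.58 (SE 0.19) and -0.55 (SE 0.20), then the surface glycoprotein Thy1 (0.87, SE 0.34) and Cd248 (0.36, SE 0.21). Matrix genes thus stood on both sides of 0 and collagen VI opposite to Mgp, Fbln1 and Aebp1.

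Interstitial progenitor genes other than the members had a median log2 fold change of 0.10 over 15 tested genes, with 9 positive and 6 negative. Pcolce2, an enhancer of procollagen processing, was lower (162, 172 and 169 CPM in Bmal1WT against 115, 129 and 84.2 CPM in Bmal1KO), and Uchl1, a deubiquitinase, was higher (14.8, 11.6 and 9.15 against 23.01, 15.4 and 20.6 CPM), each with no overlap. Ugdh had a log2 fold change of -0.38 (SE 0.18) and the ligand gene Wnt2 one of 1.62 (SE 0.88) at 0.228 to 5.96 CPM, partly under the floor of 3 counts. Committed preadipocyte genes had a median of -0.23 over 11 tested, 8 of them negative, led by Pparg, the master regulator of fat cell formation, at -0.68 (SE 0.18) and the basement membrane collagen Col4a1 at -0.45 (SE 0.18). Apoc1 (-0.58, SE 0.50) and Lpl (-0.26, SE 0.23) overlapped between groups. Pparg, Lpl, Fabp4 and Cd36 of this list are also expressed by mature fat cells.

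Genes of the F3-positive stroma, a population described as restraining fat cell formation, had a median of -0.0039 over 6 genes. Meox2, a homeobox gene that endothelium expresses as well, was at 26.6, 32.9 and 47.9 CPM in Bmal1WT, against 18.8, 11.7 and 16.5 CPM in Bmal1KO (-1.20 on the log2 scale, SE 0.28, edgeR adjusted p = 0.382), with no overlap. Gdf10 (-0.51, SE 0.32), Fmo2 (0.34, SE 0.25) and Vit (0.16, SE 0.41) overlapped.

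Pdgfd, whose product acts mainly on the sister receptor PDGFRB, was higher (8.44, 11.5 and 7.75 CPM against 15.04, 14.9 and 13.03 CPM), and Pdgfc, whose product acts on PDGFRA, was lower (20.2, 28.0 and 21.4 CPM against 19.7, 10.1 and 16.4 CPM), each with no overlap. The log2 fold change was 0.64 (SE 0.29) for Pdgfd and -0.60 (SE 0.29) for Pdgfc. Pdgfa had a log2 fold change of -0.45 (SE 0.23) and the phospholipase gene Plcg1 one of -0.46 (SE 0.26). Over the 13 genes of PDGF signalling the median was -0.03, with 5 positive and 8 negative. Ligand genes thus stood on both sides of 0.

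Relatives of the members by protein family had a median of 0.03 over 29 tested of 37 genes. Cd59a, like Cd55 a GPI-anchored inhibitor of complement, was lower (337, 311 and 322 CPM against 247, 222 and 164 CPM; log2 fold change -0.61, SE 0.18), while Cpz, a carboxypeptidase of the family of Aebp1, was higher (12.7, 13.2 and 10.2 CPM against 18.2, 17.6 and 21.7 CPM; 0.67, SE 0.25). Cpe of the same family was at 13.5 to 17.2 CPM in Bmal1WT, against 16.8 to 45.1 CPM in Bmal1KO (0.98, SE 0.33). Ly6d had a log2 fold change of 2.91 (SE 0.96) that rested on 52.1 CPM in Bmal1KO replicate 3, against 4.96 and 5.55 CPM in the other Bmal1KO libraries. Family members thus stood on both sides of 0.

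TGF-beta and scar genes had a median of 0.02 over 15 genes. Acta2, the smooth muscle actin of myofibroblasts and vessel walls, was lower (242, 258 and 202 CPM against 149, 179 and 176 CPM; -0.48, SE 0.16), and Tgfbr1 was higher (18.8, 18.7 and 18.9 CPM against 21.1, 25.1 and 25.8 CPM; 0.35, SE 0.22). Ccn2 (1.14, SE 0.70, at 0.753 to 5.34 CPM) and Tgfbr2 (0.30, SE 0.19) overlapped. Transcription factors of progenitors had a median of 0.15 over 15 tested of 18 genes. Beside Pparg, Wt1, of visceral progenitors and mesothelium, had a log2 fold change of 0.89 (SE 0.36), Tcf4 one of 0.24 (SE 0.16) and Zfp423 one of -0.41 (SE 0.28).

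In bulk tissue, fewer cells of a type and less RNA per cell cannot be told apart, and the markers of several other cell types differed in level between these libraries. Fat cell markers had 10 of 10 negative log2 fold changes, with a summed level of 17445 to 23180 CPM in Bmal1WT and 10328 to 24275 CPM in Bmal1KO. Bmal1KO replicate 1 was the highest of the 6 libraries and replicates 2 and 3 the lowest; for Gsn, too, replicates 2 and 3 were the lowest. Adipoq had a log2 fold change of -0.54 (SE 0.35), close to that of Gsn, Cidec one of -0.37 (SE 0.29) and Lep one of -0.25 (SE 0.32). The part of fat cell content in the values of Gsn was not tested.

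Mesothelial markers, of the layer that covers visceral fat, had 11 of 11 positive log2 fold changes. Their summed level was 301 to 545 CPM in Bmal1WT and 607 to 633 CPM in Bmal1KO, with no overlap. The sums of T cell and of mast cell markers did not overlap either, and no background for such sums was computed. Singly, 3 of 11 mesothelial markers were higher without overlap, against 7.83% of all genes. Krt8, Cldn15 and Krt18 were near 0 (0.04, 0.09 and 0.11 on the log2 scale). Upk3b was at 58.4 to 100.4 CPM in Bmal1WT and 134 to 171 CPM in Bmal1KO, Lrrn4 at 25.2 to 54.98 and 71.4 to 85.7 CPM, and Msln at 66.6 to 128 and 92.3 to 141 CPM. Endothelial markers had 11 of 11 negative values (479 to 1013 CPM summed in Bmal1WT, 337 to 551 CPM in Bmal1KO) and mural markers 8 of 8 tested (256 to 340 and 157 to 315 CPM), which is the opposite side to Mgp. The log2 fold change was -1.18 (SE 0.30) for Cldn5, -0.67 (SE 0.27) for Pecam1 and -0.66 (SE 0.25) for Esam, all of endothelium. Of mural cells, it was -0.26 (SE 0.29) for Mcam, -0.06 (SE 0.20) for Des and -0.90 (SE 0.39) for Rgs5. T cell markers, of cells that also express Dpp4, had 10 of 10 positive values (17.6 to 72.9 and 94.0 to 224 CPM summed), with Lck at 2.24 (SE 0.76), Cd2 at 0.64 (SE 0.33) and Cd3d at 1.89 (SE 0.71) on the log2 scale. Of the mast cell markers 5 of 5 tested were positive, and their sum was 70.3 to 144 CPM in Bmal1WT and 246 to 389 CPM in Bmal1KO, with no overlap. Among them were the protease genes Tpsb2 (1.85, SE 0.28) and Mcpt4 (1.65, SE 0.26), each at an edgeR adjusted p = 0.265, the lowest of any gene tested. Macrophage markers were positive for 9 of 10 (8349 to 12641 and 8332 to 17791 CPM summed) and B cell markers for 6 of 6 tested (1397 to 1804 and 736 to 4399 CPM summed), both with overlap of the sums. No marker on these lists was at 0 in all libraries. The part of mesothelium, vessels or immune cells in the members' values was not tested.

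**Figure D3:**
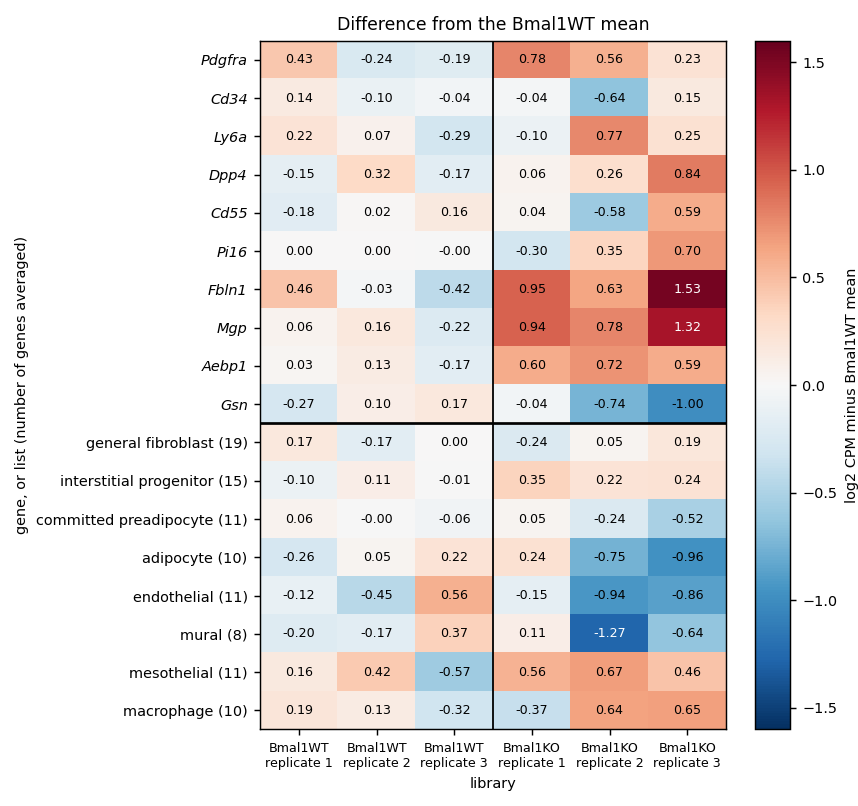
Difference in log2 CPM from the Bmal1WT mean, for each of the 10 genes (above the black line) and for the mean over gene lists (below it, number of genes averaged in brackets), in each library (columns); red is higher and blue lower. Mgp, Fbln1 and Aebp1 are red in every Bmal1KO library, and Gsn is low in the same 2 libraries as the mean of fat cell markers. The mean over 19 general fibroblast genes lies between -0.24 and 0.19 in all libraries. Single genes of that list, such as Thy1, go beyond this range.

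Set against the 19 general fibroblast genes of the same library, Mgp, Fbln1 and Aebp1 did not overlap between groups. The mean log2 CPM of these 19 genes differed by only -0.0012 between group means. Setting members against those genes thus leaves the differences between group means nearly unchanged. The difference between log2 CPM of a member and the mean log2 CPM of those genes was 1.08, 1.52 and 0.97 for Mgp in the Bmal1WT libraries and 2.36, 1.92 and 2.32 in the Bmal1KO libraries. For Fbln1 it was -1.16, -1.31 and -1.88 against -0.26, -0.86 and -0.11, and for Aebp1 0.00, 0.43 and -0.04 against 0.97, 0.80 and 0.53. Differences between group means were 1.02 log2 units for Mgp, 1.04 for Fbln1 and 0.63 for Aebp1, and the groups overlapped for the other 7. The share of all genes without overlap on this scale was not counted, so these 3 have no background here. Pdgfra differed by 0.53 and Gsn by -0.59 between group means, each with overlap. These differences are a description without a test.

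**Figure D4:**
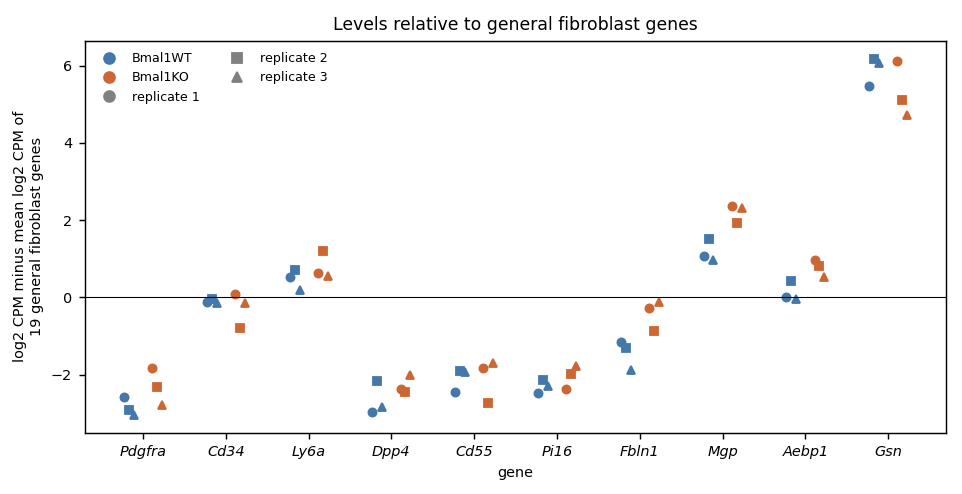
Log2 CPM of each gene minus the mean log2 CPM of 19 general fibroblast genes in the same library (vertical axis), for Bmal1WT (blue) and Bmal1KO (orange), with a marker shape for each replicate number. Mgp, Fbln1 and Aebp1 have all Bmal1KO points above all Bmal1WT points, as without this scaling. The share of all genes that do so on this scale was not counted.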

How the data were processed

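The 6 RNA libraries came from whole visceral fat. The labels' protocols describe 2 ng of RNA, oligo(dT) priming, amplification and Nextera XT fragmentation, a method that does not mark strand, and no molecular barcodes. The authors deposited raw read counts by gene symbol, obtained with STAR 2.7.3a, featureCounts and mm10, per the submitters' processing notes; their annotation and how multiply mapped reads were handled were not given in the sources used here.

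Counts were tested unaltered in edgeR 4.0.16 (R 4.3.3) with filterByExpr, TMM scaling, a robust quasi-likelihood F-test without covariates and Benjamini-Hochberg adjustment over 13859 genes (threshold 0.05). Groups came from the sample titles. The SE is the unshrunken log2 coefficient divided by the square root of F. Log2 CPM profiles use a prior count of 2. The floor of 3 counts was 0.315 to 0.461 CPM and covers counting error only. Exon lengths and coordinates are from GENCODE M21. Alternatives were DESeq2 1.42.0, limma 3.58.1 voom, other scalings and filters, a replicate block and libraries left out.

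The text names all members, the 4 genes of smallest p in each related list, the 3 most abundant markers of cells that also express members, and the 5 genes nearest the members' mean profile. Arntl, Foxp3, Dcn, Col3a1, Fabp4, Cd36, Tpsb2, Mcpt4 and Cd55b were named outside this rule. The members and lists were chosen with earlier results of these data known. Of 253 list entries, 1 was found by an older symbol.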

Additional observations from a re-analysis of the deposited data

How the results depend on the processing

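Over all alternatives, the log2 fold changes of Mgp, Fbln1, Aebp1, Gsn, Pdgfra, Pi16, Dpp4 and Ly6a kept their sign. That of Cd55 turned to -0.0198 with limma voom and ran from -0.25 to 0.33 with 1 library left out, and that of Cd34 ran from -0.32 to 0.0512 (above 0 without Bmal1KO replicate 2). Against 0 genes and 0 members called by edgeR, DESeq2 called 60 of 14379 genes and 3 members. With no filter on low counts, edgeR called 186 of 34517 genes and 2 members (Fbln1, edgeR adjusted p = 0.000149, and Mgp, edgeR adjusted p = 4.83e-05). Their log2 fold changes were 1.03 and 1.01 there, no larger than with the filter. The median over all genes was 0.45 there, against 0.02 with the filter. The smaller p-values thus came with the change of filter and not with larger differences. With 1 library left out, edgeR called 0 to 156 genes and 0 to 2 members, the most without Bmal1KO replicate 1, where 14247 genes were tested. In these fits 1 gene was called without Bmal1WT replicate 1 and 6 without Bmal1KO replicate 2. The members' median log2 fold change then ran from 0.26 to 0.53, and the members without overlap numbered 3 to 6, while the share of all genes without overlap, 15.7% with all libraries, was 24.2 to 33.9%: 5 members and 24.2% without Bmal1WT replicate 1, 6 members and 33.9% without Bmal1KO replicate 1. Without replicate 1 of both groups, which leaves 2 libraries a group, edgeR called 61 of 13958 genes and 1 member (Gsn, edgeR adjusted p = 0.0329). The median was 0.59 there and 7 members did not overlap, against 46.3% of all genes. With fewer libraries more genes do not overlap, so these counts are no result about the members. Fbln1, Mgp and Aebp1 were among them in every setting in which overlap was counted. Groups without overlap in all libraries can hardly come to overlap when libraries are left out. That these 3 recur is therefore no separate result about them. The overlap counts were added after seeing the data. Samples of the same replicate number deviated no more alike than others. Correlations of deviations were -0.07, 0.09 and -0.03 for like numbers and -0.08 to 0.11 for unlike ones. What the numbers mark is not stated, so a pairing of the samples is not excluded. With the number as a block, edgeR called 0 genes and 0 members, with 1121 genes at an unadjusted p under 0.05 and a median of 0.35. Depth, at 6514620 to 9529198 counts, leaves genes near the floor of 3 counts, such as Wnt2, without a firm value.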
